A study of Rattus norvegicus with 10 samples.

Results

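The nuclear-encoded subunits of oxidative phosphorylation were followed in muscle under the skin of rats (female Wistar) in which collagen-induced arthritis had been set up. The members were all transcripts whose symbol in the table begins with Nduf and a letter a, b, c, s or v followed by a number, is one of Sdha to Sdhd or Cyc1, or begins with Uqcr, with Cox and a number from 4 to 8 followed by a, b, c or i, or with Atp5. This gave 82 of the 17221 transcripts, under 78 symbols. All animals had been immunised with bovine collagen in Freund's adjuvant, and therapy began when arthritis appeared. The 10 libraries, each from 1 animal, fall into 5 groups of 2. RA_0 was taken before therapy. AP_1h and AP_34d were taken 1 h and 34 days after the first needle stimulation, in which needles at points on the lower back and leg were turned. PLA_1h and PLA_34d were taken at the same times from rats given saline into the abdominal cavity, so the placebo did not touch the sampled place. Per the paper, needling was repeated every other day and saline was given weekly, so the 34-day groups had repeated treatment at unlike intervals. Each time point had its own animals, and no healthy animals are analysed here, so each comparison is between arthritic rats.

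Oxidative phosphorylation takes place at the inner membrane of mitochondria. Complex I (NADH dehydrogenase, the Nduf genes) and complex II (succinate dehydrogenase, the Sdh genes) pass electrons to coenzyme Q, complex III (the cytochrome bc1 complex, Uqcr genes and Cyc1) passes them to cytochrome c, and complex IV (cytochrome c oxidase, the Cox genes) passes them to oxygen, while complex V (ATP synthase, the Atp5 genes) makes ATP from the proton gradient. Most subunits are nuclear genes, some of which have a form for heart and skeletal muscle beside a form for other tissues. Slow muscle fibres, marked by the slow myosin Myh7, are known as richer in mitochondria than the fastest fibres, and the slow fibre content of a muscle piece depends on where it is cut.

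The members comprise 35 rows of complex I, 4 of complex II, 8 of complex III, 16 of complex IV and 15 of complex V. Ndufa4 was counted with complex IV, where the protein is now placed. The other 4 rows bear a matching name but are no subunits: Atp5s and Atp5sl, the pseudogene Cox6c-ps1 and a non-coding row of Cox6a2. Of the 82 rows, 76 (74 symbols) reached 1 CPM in each of the 2 libraries of some group and were tested, among 10259 transcripts in all. CPM are the deposited counts per library, scaled by its total and its TMM factor from edgeR. The 6 that were not tested were a second Ndufv3 row, Ndufa10l1, Cox8c and the non-coding Cox6a2 row, at 0 in all 10 libraries, Cox6b2 with at most 0.891 CPM and Cox6c-ps1 with at most 2.39 CPM. A row at 0 may still have a level of 0.297 to 0.716 CPM, depending on the library (3 reads, counting error only). Cox7a1, Cox6b1 and Ndufa4l2 are not analysed here.

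The libraries held 5371687 to 8899521 counted reads, and 1 CPM stood for 4.19 to 10.1 reads. Acta1, the actin of skeletal muscle, ranged from 30415 to 134964 CPM and Ckm, muscle creatine kinase, from 16181 to 56881 CPM, so the labelled tissue was present in each library. Of the other markers, the brown fat gene Ucp1 and the leukocyte gene Ptprc were at 0 in all libraries. The 0 of Ptprc does not show that leukocytes were absent, as the 8 leukocyte markers summed to at least 105 CPM. PLA_34d replicate 1 stood apart with 919 CPM summed over 8 leukocyte markers and 577 CPM over 3 lymph node markers, against at most 509 and 66.8 CPM in any other library, and it also had the largest share of slow fibre RNA.

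The subunits of the 5 complexes were high together in 4 libraries and low together in 6, and these sets cut across the groups. Summed over all members, the level was 63882 and 32097 CPM in RA_0, 20121 and 29015 CPM in AP_1h, 26543 and 52393 CPM in PLA_1h, 49539 and 22256 CPM in AP_34d, and 21555 and 46590 CPM in PLA_34d (replicates 1 and 2). RA_0 replicate 1, PLA_1h replicate 2, AP_34d replicate 1 and PLA_34d replicate 2 thus lay between 46590 and 63882 CPM, and the other 6 libraries between 20121 and 32097 CPM. The group means were 47990 ± 22476 CPM in RA_0, 24568 ± 6288 in AP_1h, 39468 ± 18279 in PLA_1h, 35898 ± 19292 in AP_34d and 34073 ± 17702 in PLA_34d (SD, n = 2 each). AP_1h was the one group whose replicates were both low, 1.44-fold apart, whereas the replicates of the other groups were 1.97-fold to 2.23-fold apart.

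Part of this spread lies in the scaling. Before the TMM factors, which ran from 0.780 in RA_0 replicate 1 to 1.31 in PLA_34d replicate 1, the members took 2.36% of the counted reads in AP_34d replicate 2 (95% Wilson interval 2.34% to 2.37%) and 4.98% in RA_0 replicate 1 (4.97% to 5.003%), a 2.12-fold range against 3.17-fold in CPM. The intervals cover counting error only and are narrow against the gaps between animals. On this unscaled measure the group means were 4.26 ± 1.03% in RA_0, 2.51 ± 0.192% in AP_1h, 3.66 ± 0.923% in PLA_1h, 3.35 ± 1.40% in AP_34d and 3.63 ± 1.15% in PLA_34d (SD, n = 2), and the same 4 libraries, at 4.31% to 4.98%, lay above the other 6, at 2.36% to 3.53%. In bulk tissue, fewer muscle cells and less of these RNAs per cell cannot be told apart.

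The same 4 libraries were the highest in each complex in CPM, while the lowest library differed between complexes. The 33 tested rows of complex I, with the catalytic NADH and iron-sulphur subunits, summed to 15928 and 7526 CPM in RA_0, 4970 and 6928 in AP_1h, 6277 and 12884 in PLA_1h, 12079 and 4892 in AP_34d, and 4981 and 11627 in PLA_34d. Complex IV had the widest range, 3.60-fold, with 10382 and 4792 CPM in RA_0, 3457 and 4413 in AP_1h, 3722 and 8131 in PLA_1h, 8318 and 3104 in AP_34d, and 2888 and 7147 in PLA_34d. The 4 subunits of complex II, which also works in the tricarboxylic acid cycle, had the narrowest range, 2.71-fold, with 3568 and 2445 CPM in RA_0, 1316 and 2107 in AP_1h, 2120 and 2952 in PLA_1h, 2794 and 1699 in AP_34d, and 1865 and 3475 in PLA_34d. Complex III ran from 2532 CPM in AP_1h replicate 1 to 8226 CPM in RA_0 replicate 1, and complex V from 7775 to 25635 CPM in the same libraries. Within groups, the pooled SD of the log2 sums was 0.48 for complex II, 0.75 for complex I, 0.73 for complex III, 0.80 for complex IV and 0.65 for complex V. In each complex the widest gap between 2 replicates of a group, from 0.90 in complex II to 1.42 in complex IV on the log2 scale, was larger than the whole range of the 5 group means, from 0.83 to 0.94. This depended on the TMM factors in complexes II and V. As a share of counted reads, the widest gap was 0.45 in complex II and 0.75 in complex V, under the ranges of their group means, 0.72 and 0.78, while in complexes I, III and IV the gap (0.94 to 1.15) remained above the range (0.69 to 0.75). In complex II, RA_0 replicate 2, at 0.269% of reads, then lay above 2 of the 4 libraries, PLA_1h replicate 2 (0.243%) and AP_34d replicate 1 (0.245%).

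**Figure D1:**
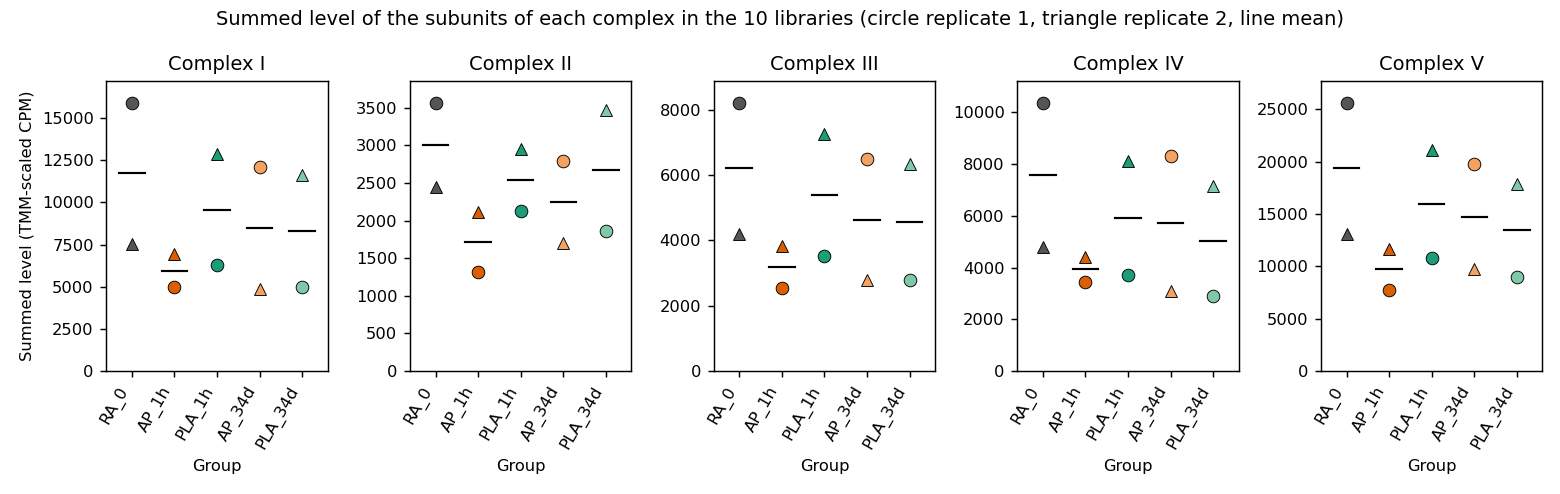
The 5 panels show the summed CPM of the subunits of each complex (vertical axes from 0) in the 10 libraries by group, circles replicate 1, triangles replicate 2 and lines the means of 2. Replicates of a group lie up to 2.68-fold apart. In AP_1h they are 1.28-fold to 1.60-fold apart, which in complex II is wider than in RA_0 (1.46-fold) and PLA_1h (1.39-fold).

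The core subunits followed the sums to different degrees. Ndufs1, the largest iron-sulphur subunit of complex I (chromosome 9, 61798143 to 61831964, rn4), had 798 and 565 CPM in RA_0, 238 and 483 in AP_1h, 666 and 706 in PLA_1h, 562 and 369 in AP_34d, and 484 and 900 in PLA_34d. Ndufv1, which holds the NADH site, had 798 and 488 CPM in RA_0, 232 and 314 in AP_1h, 362 and 935 in PLA_1h, 719 and 311 in AP_34d, and 328 and 792 in PLA_34d. For both genes the AP_1h libraries lay below both RA_0 libraries and both PLA_1h libraries. With the mean of the other members, Ndufv1 had r = 0.93 and Ndufs1 r = 0.74.

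Sdha, the flavoprotein of succinate dehydrogenase (chromosome 1, 29739359 to 29764329), had 944 and 848 CPM in RA_0, 402 and 515 in AP_1h, 705 and 988 in PLA_1h, 823 and 706 in AP_34d, and 620 and 1259 in PLA_34d. Its iron-sulphur partner Sdhb had 894 and 449 CPM in RA_0, 217 and 329 in AP_1h, 414 and 632 in PLA_1h, 677 and 268 in AP_34d, and 363 and 651 in PLA_34d. Sdha was among the members that followed the other subunits least, as its RA_0 and AP_34d replicates lay close together.

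In complex III, Cyc1, cytochrome c1, ranged from 324 CPM in AP_1h replicate 1 to 1336 CPM in RA_0 replicate 1 with a median of 631 CPM, and Uqcrfs1, the Rieske iron-sulphur protein, from 517 CPM in AP_1h replicate 1 to 1823 CPM in PLA_1h replicate 2 with a median of 843 CPM. In complex IV, Cox4i1, the common form of subunit 4, ranged from 378 to 1610 CPM (median 533), and Cox5a from 191 to 680 CPM (median 265). The catalytic subunits of complex V were Atp5a1 (Atp5f1a today), with 1460 to 5068 CPM (median 2466), and Atp5b (Atp5f1b today), with 2218 to 7550 CPM (median 4130). Of these 6, all but Uqcrfs1 were highest in RA_0 replicate 1, and all but Cox5a were lowest in AP_1h replicate 1.

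**Figure D2:**
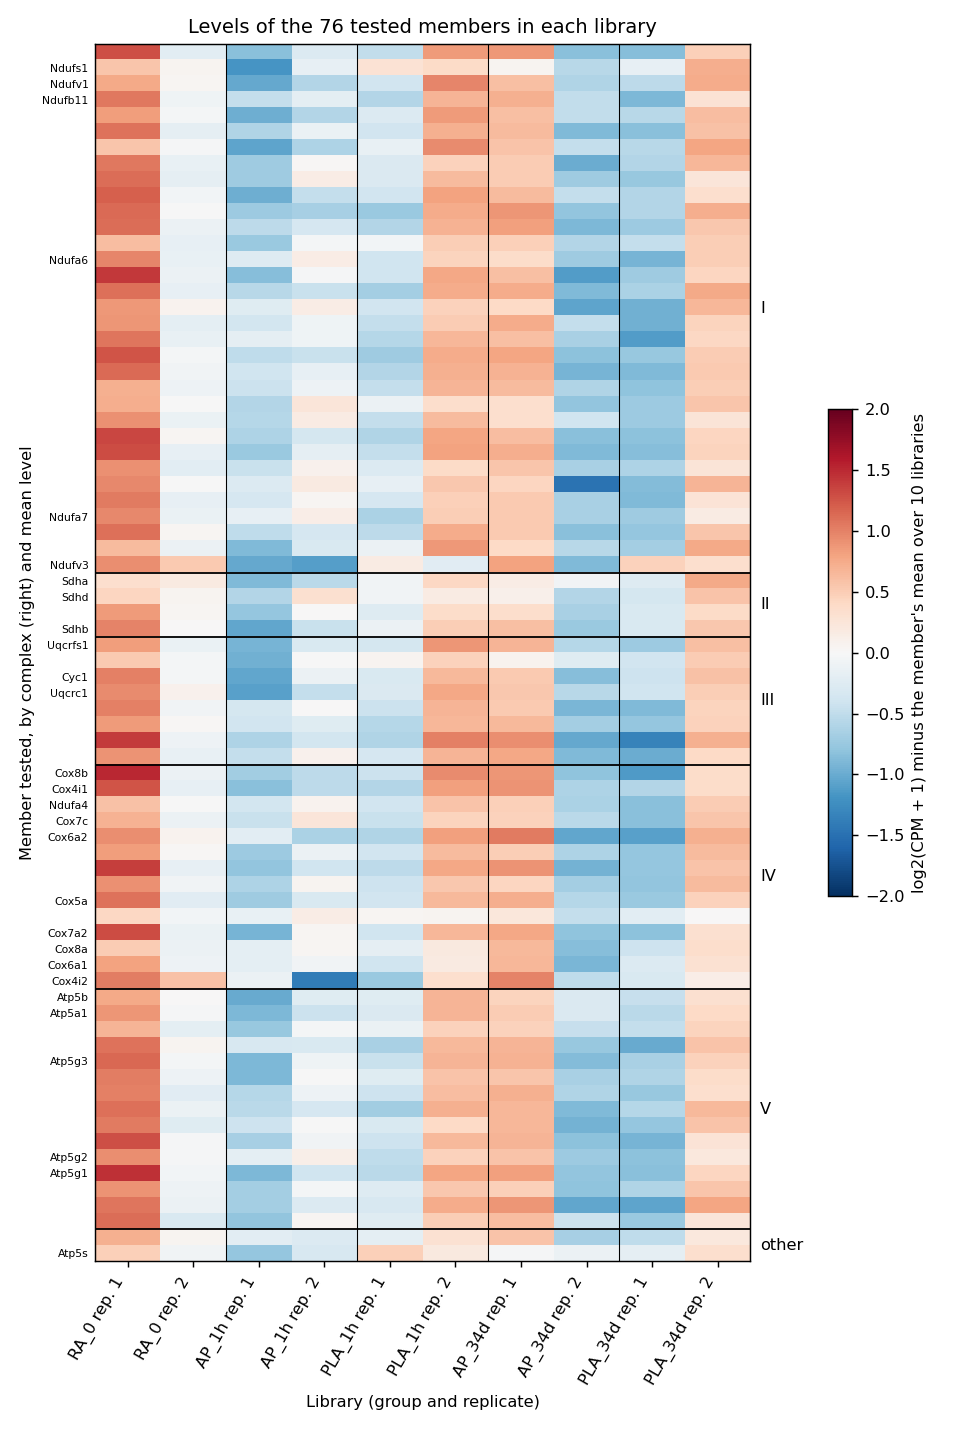
Colours give log2(CPM + 1) of each of the 76 tested members (rows, by complex and from the highest to the lowest mean level, labelled for the members named by rule) in each library (columns, by group and replicate), minus the member's mean over the 10 libraries. Columns, not groups of columns, carry most of the colour: RA_0 replicate 1 was the highest library for 66 of 76 members.

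Across the 10 libraries the tested members formed nearly one profile. RA_0 replicate 1 was among the 4 highest libraries for 76 of 76 members, PLA_1h replicate 2 for 75, PLA_34d replicate 2 for 73 and AP_34d replicate 1 for 72, whereas each of the other 6 libraries was so for at most 3. The lowest library was AP_1h replicate 1 for 25 members, PLA_34d replicate 1 for 25 and AP_34d replicate 2 for 24. Over the 2850 pairs of members the median Pearson r was 0.92 (n = 10 libraries, described without a test; the members share library, depth and scaling), and 1 principal component held 90.2% of the members' variance. For 64 of 76 members r with the mean of the others was above 0.9, with the closest, such as the complex V subunit Atp5j, varying by an SD of 0.09 (log2) around that mean. The members that departed most were Ndufv3 (SD 0.64, r = 0.58), Cox4i2 (0.56 and 0.69) and Atp5s (0.48 and 0.61), which are described below.

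For 68 of the 76 members (89.5%), the widest gap between the 2 libraries of a group exceeded the whole range of the 5 group means, against 72.9% of all tested transcripts. Without the TMM factors this held for 62 members (81.6%), near the 79.6% of all transcripts. The pooled SD within groups had a median of 0.75 (log2) over the members and of 0.39 over all tested transcripts. The group mean was highest in RA_0 for 71 members (93.4%, against 23.4% of all transcripts) and lowest in AP_1h for 58 (76.3%, against 25.6%), which, as the members share 1 profile, describes these libraries rather than 76 separate observations.

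No member passed an adjusted p of 0.05, whether in the 6 pairs of groups, in the change of the AP minus PLA difference from 1 h to 34 days or in the F test over the 5 groups (limma with Benjamini-Hochberg adjustment over all 10259 transcripts). The background share of transcripts called was 0.0292% in AP_1h against RA_0 (3 transcripts) and 0% in the other 7 comparisons. limma-voom and edgeR likewise called no member in any comparison, and DESeq2 called 1, Ndufv3, in AP_1h against RA_0. Counts were also simulated for all 10 libraries, with 200 of 10259 transcripts changed 4-fold in AP_1h. In AP_1h against RA_0, limma recovered 49.5% of them. The changed transcripts were taken above a minimum of reads, and counts were drawn separately for each transcript, without the profile the members share. Changes of 4-fold may thus go uncalled, as may smaller ones, and recovery for the members themselves was not tested.

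AP_1h against RA_0 asks how the tissue differed 1 h after the first stimulation from tissue before therapy. All 76 tested members were lower in AP_1h, by a median of 0.85 on the log2 scale (from −1.78 to −0.18), with 49.9% of all transcripts lower and a median of 0.00 over all of them. The medians by complex were −0.83 for complex I, −0.90 for complex II, −0.86 for complex III, −0.89 for complex IV and −0.90 for complex V. For 43 members (56.6%) both AP_1h libraries lay below both RA_0 libraries, where 21% of all transcripts did so, and 0 members lay above in this way, where 20.6% did. At an unadjusted p under 0.05, 7 members were lower and 0 higher, where 5.27% of all transcripts were lower and 3.62% higher. The study's rule (2-fold or more, an unadjusted p under 0.05 and a mean of 1 CPM or more) was met by 5 members, all lower (6.58%, against 3.59% of all transcripts). The size of the difference rested on RA_0 replicate 1: the median over members was −0.32 without that library and −1.40 without RA_0 replicate 2.

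The 7 members at an unadjusted p under 0.05 were Ndufv3, Cox4i2, Uqcrc1, Sdhb, Atp5s, Sdha and Ndufa9. Uqcrc1, a core protein of complex III, had 1068 and 585 CPM in RA_0 and 259 and 398 in AP_1h, a difference of −1.30 ± 0.56 (log2, SE, adjusted p = 0.542 by limma). Ndufa9, an accessory subunit of complex I, had 703 and 297 CPM in RA_0 and 155 and 220 in AP_1h, a difference of −1.30 ± 0.58 (adjusted p = 0.561). The core subunits differed by −1.24 ± 0.55 in Sdhb (adjusted p = 0.552), −0.97 ± 0.43 in Sdha (0.554), −0.98 ± 0.47 in Ndufs1 (0.603), −1.21 ± 0.61 in Ndufv1 (0.623) and −0.93 ± 0.62 in Cox5a (0.714). In none of these did the difference pass the test, although the libraries of AP_1h and RA_0 did not overlap in any of them.

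Against PLA_1h, the contrast of needle and saline at 1 h, 75 of 76 members were lower in AP_1h, with a median of −0.54 (0.01 over all transcripts, of which 49.1% were lower). The libraries did not overlap for 15 members, all lower in AP_1h (19.7%, near the 16.7% of all transcripts), and for 0 members in the other direction (13.9%). Of these 15, 7 were subunits of complex I, among them Ndufs1 and Ndufv1. Complexes II (Sdha, Sdhb) and III (Uqcrc1, Uqcrc2) had 2 each, and complexes IV and V had 1 each. The others were Atp5s and Atp5sl, which are no subunits. The names are given after their values were seen, and a pattern by complex was not tested. At an unadjusted p under 0.05, 1 member was lower (1.32%, against 2.74% of all transcripts) and 0 were higher (1.3%). That member was Atp5s, today Dmac2l, a coupling factor related to ATP synthase and no subunit, with 11.6 and 16.2 CPM in AP_1h and 29.0 and 23.7 in PLA_1h, a difference of −0.89 ± 0.34 (adjusted p = 1.00 by limma). The smallest p in the other direction was that of Ndufa7, an accessory subunit of complex I, at 0.05 ± 0.54. The median over the members was −0.02 without PLA_1h replicate 2 and −1.02 without PLA_1h replicate 1.

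PLA_1h against RA_0 gave a median of −0.34 over the members, 71 of them lower (50.7% of all transcripts were lower), and 2 members, Ndufv3 and Cox4i2, with libraries that did not overlap (2.63%, against 13.6% lower and 15.8% higher in all transcripts). The smallest unadjusted p belonged to Cox4i2 among lower members, at −1.01 ± 0.60, and to Atp5s among higher ones, at 0.13 ± 0.34. No member had an unadjusted p under 0.05 (1.21% of all transcripts were lower and 1.38% higher at it). Leaving out RA_0 replicate 1 turned the median to 0.20, and leaving out RA_0 replicate 2 took it to −0.88.

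At 34 days the members did not separate needle from saline. In AP_34d against PLA_34d the median was 0.06, with 46 members higher and 30 lower (49.8% of all transcripts were lower), and the libraries overlapped for each of the 76 members, where 15% of all transcripts were lower and 16% higher without overlap. The medians by complex were −0.20 in complex II and between 0.04 and 0.15 in the others. The smallest p belonged to Ndufb11, an accessory subunit of complex I, among higher members, at 0.41 ± 0.62, and to Ndufs1 among lower ones, at −0.53 ± 0.47 (adjusted p = 0.921 by limma). No member had an unadjusted p under 0.05, where 2.51% of all transcripts were higher and 2.96% lower. The sign of the median followed single animals: it was −0.59 without AP_34d replicate 1 and 0.74 without AP_34d replicate 2.

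Against RA_0, all 76 members were lower in AP_34d, by a median of 0.52, and all 76 in PLA_34d, by a median of 0.57, where 50.7% and 51% of all transcripts were lower. These and the 1 h comparisons share the RA_0 libraries, so their common direction is not independent. In AP_34d the libraries did not overlap for Ndufs1 and Sdha (2.63%, both lower, against 15.9% of all transcripts lower and 16.4% higher), and in PLA_34d for Ndufv3 and Cox4i2 (2.63%, both lower, against 14.2% lower and 16.8% higher). No member had an unadjusted p under 0.05 in either comparison, where 4.77% and 3.2% of all transcripts did. The smallest p belonged to Ndufv3 in AP_34d, at −0.77 ± 0.47, and to Cox4i2 in PLA_34d, at −0.89 ± 0.60. Without RA_0 replicate 1 the medians were 0.02 and −0.04.

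The AP minus PLA difference moved from 1 h to 34 days by a median of 0.58 over the members, upward for 72 of 76 (48.2% of all transcripts moved downward). No member passed, and none had an unadjusted p under 0.05 (1.9% of all transcripts higher and 2.15% lower). The smallest p values belonged to Atp5s, at 0.74 ± 0.47, and, among the 4 members that moved down, to the complex II membrane anchor Sdhd, at −0.17 ± 0.66. The F test over the 5 groups had an unadjusted p under 0.05 for 1 member (1.32%, against 4.98% of all transcripts), Ndufv3, whose adjusted p was 0.965 by limma. In the other complexes the smallest unadjusted p by this limma test was 0.209 for Sdha in complex II, 0.27 for Uqcrc1 in complex III, 0.203 for Cox4i2 in complex IV and 0.466 for Atp5g1 in complex V.

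**Figure D3:**
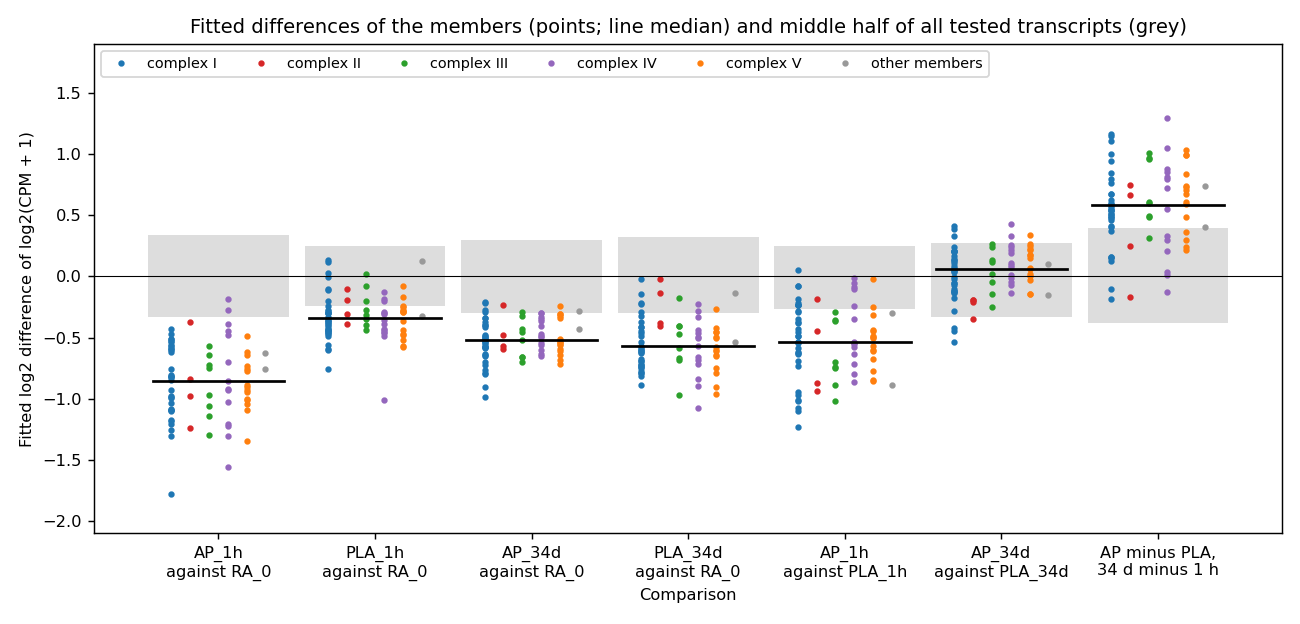
Points are the fitted differences of log2(CPM + 1) of the 76 members, coloured by complex, in the 6 pairs of groups and in the change of the AP minus PLA difference, black lines their medians, and grey boxes the interquartile range of all 10259 tested transcripts. Against RA_0 the members lie below 0, except 5 members in PLA_1h, with medians from −0.85 to −0.34, and around 0 in AP_34d against PLA_34d.

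Slow fibre RNA, the summed share of Myh7, Myl2, Myl3, Tnni1, Tnnt1, Tnnc1 and Tpm3 among counted reads, did not order the libraries as the members did. It was 1.56% and 1.11% in RA_0, 0.119% and 0.104% in AP_1h, 0.477% and 0.153% in PLA_1h, 0.981% and 0.203% in AP_34d, and 2.62% and 0.165% in PLA_34d. PLA_34d replicate 1, with the most slow fibre RNA, was among the lowest libraries for the members, and PLA_1h replicate 2 and PLA_34d replicate 2, with little of it, were among the highest. The log2 sum of the members in CPM and the log2 slow fibre share had Pearson's r = 0.15 and Spearman's rho = 0.15 over the 10 libraries. These are given as a description. Without the 2 libraries farthest from the median, RA_0 replicate 1 and PLA_34d replicate 1, r was 0.23, on deviations from the group means it was −0.28, and without single libraries it ran from −0.08 to 0.46. By complex, r was 0.13 for complex I, 0.24 for complex II, 0.13 for complex III, 0.10 for complex IV and 0.18 for complex V. With the members also as shares of counted reads, r was 0.32 and rho 0.37 over all members. By complex, r on these shares was 0.27, 0.46, 0.28, 0.22 and 0.37 for complexes I to V.

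Acta1 and Ckm lay closer to the members than slow fibre RNA did. Together they took 12.7% to 14.97% of the reads in the 4 libraries with high members and 6.59% to 10.6% in the other 6. Against the members' CPM, r was 0.94 and rho 0.93 over the 10 libraries, and r was 0.99 without the 2 farthest. With the members also as shares of reads, r was 0.89 and rho 0.77. For the fast fibre list, which includes Myh4, Tnnt3 and Actn3, r was 0.54 and rho 0.50 against the members' CPM. On shares of reads r was 0.34 and rho 0.12, where the slow fibre list had 0.32 and 0.37. Rn45s, the ribosomal RNA precursor, took 0.237% to 1.43% of reads. It had r = 0.69 with the members' CPM, and the number of counted reads had r = −0.52. The TMM factor, by which all CPM of a library are divided, had r = −0.88 and rho = −0.90 with the members' CPM. With the members as shares of reads, before this scaling, its r was −0.72. The markers of red blood cells (Hba-a2, Hbb and Alas2) summed to 378 to 575 CPM in the 4 libraries with high members and to 212 to 336 CPM in the other 6, without overlap (0.0361% to 0.0449% and 0.0195% to 0.0356% of reads), with r = 0.88 in CPM and 0.72 as shares of reads. These measures share the libraries and the total with the members, and the part of each in the members' levels was not tested. Per unit of Acta1 and Ckm, the members amounted to 28.4% to 45.6%, a 1.61-fold range. This ratio was 33.3% and 33.2% in RA_0 and 31.9% and 29.2% in AP_1h (replicates 1 and 2). It was 45.6% and 30.9% in PLA_1h, 33.8% and 28.4% in AP_34d, and 35.7% and 34.95% in PLA_34d. Both AP_1h libraries thus lay below both RA_0 libraries here too. Differences between groups in this ratio were not tested.

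**Figure D4:**
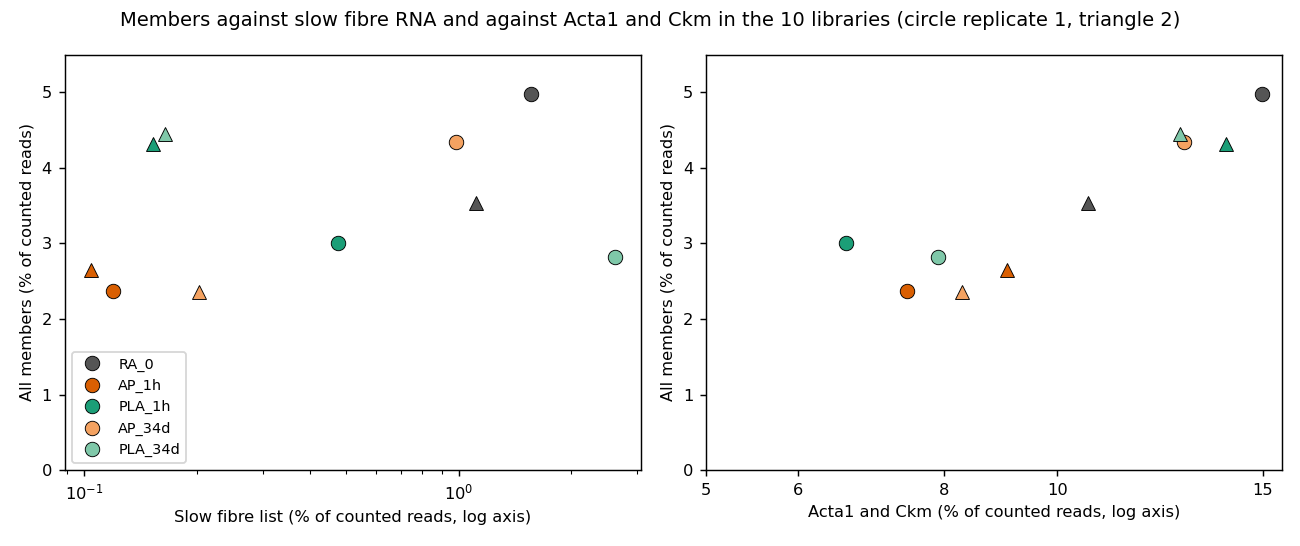
Each point is a library, coloured by group, with the members' share of counted reads on the vertical axis, against the share of the slow fibre list (left, log axis) and of Acta1 and Ckm (right, log axis). Libraries with 4.31% to 4.98% of members occur from 0.153% to 1.56% slow fibre RNA, but all 4 have at least 12.7% Acta1 and Ckm.

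Among single members, Ndufv3, an accessory subunit at the NADH end of complex I, went with the slow fibre share. It had 51.8 and 39.1 CPM in RA_0, 12.8 and 12.03 in AP_1h, 30.0 and 22.8 in PLA_1h, 47.7 and 14.04 in AP_34d, and 37.5 and 34.3 in PLA_34d. It was low in both AP_1h libraries and in AP_34d replicate 2, at 22.8 CPM in PLA_1h replicate 2, where most members were high, and at 37.5 CPM in PLA_34d replicate 1, where most were low. PLA_34d replicate 2, with little slow fibre RNA, had 34.3 CPM. Its r with the slow fibre share was 0.82 (rho 0.85, n = 10), the highest of the 76 members and the only one above 0.6; 645 of the 10259 tested transcripts were above 0.6, and the median over the members was 0.13. Its difference of −1.78 ± 0.47 in AP_1h against RA_0 did not pass limma's test (adjusted p = 0.262) and was called by DESeq2 (adjusted p = 0.0315) and by limma on the 4 libraries compared alone (adjusted p = 0.0301), over alternatives from 0.0301 to 0.912. On the simulated counts, read for this comparison, DESeq2 made 30 false calls, against 3 by limma on all groups. With the slow fibre share as a covariate the adjusted p in limma was 0.781. That share was 1.56% and 1.11% in RA_0 and 0.119% and 0.104% in AP_1h. The covariate thus runs with this contrast, and the 2 cannot be told apart here. The table has a second Ndufv3 row over the same span (chromosome 20, 9951109 to 9960264, rn4), at 0 in all libraries, and reads common to both transcripts are not counted in either, so the value stands for sequence that only 1 of these transcripts has.

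Next came Cox4i2, the form of cytochrome c oxidase subunit 4 known from lung and for its response to oxygen, with r = 0.50, and Sdhb with r = 0.39. Cox4i2 was near the limit of detection, with 8.83 and 6.24 CPM in RA_0, 3.46 and 0.840 in AP_1h, 1.88 and 5.09 in PLA_1h, 8.59 and 2.39 in AP_34d, and 2.92 and 4.26 in PLA_34d. Its values in RA_0 lay above those in AP_1h, PLA_1h and PLA_34d without overlap, and its difference in AP_1h against RA_0 was −1.56 ± 0.60 (adjusted p = 0.495 by limma). The lowest r were those of Cox7c (−0.13), Ndufa4 (−0.11), both of complex IV, and Ndufa6 (−0.09) of complex I. Cox7c had 968 and 546 CPM in RA_0, 437 and 701 in AP_1h, 436 and 813 in PLA_1h, 816 and 409 in AP_34d, and 331 and 869 in PLA_34d. Its span overlaps another symbol, so it is uncertain.

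**Figure D5:**
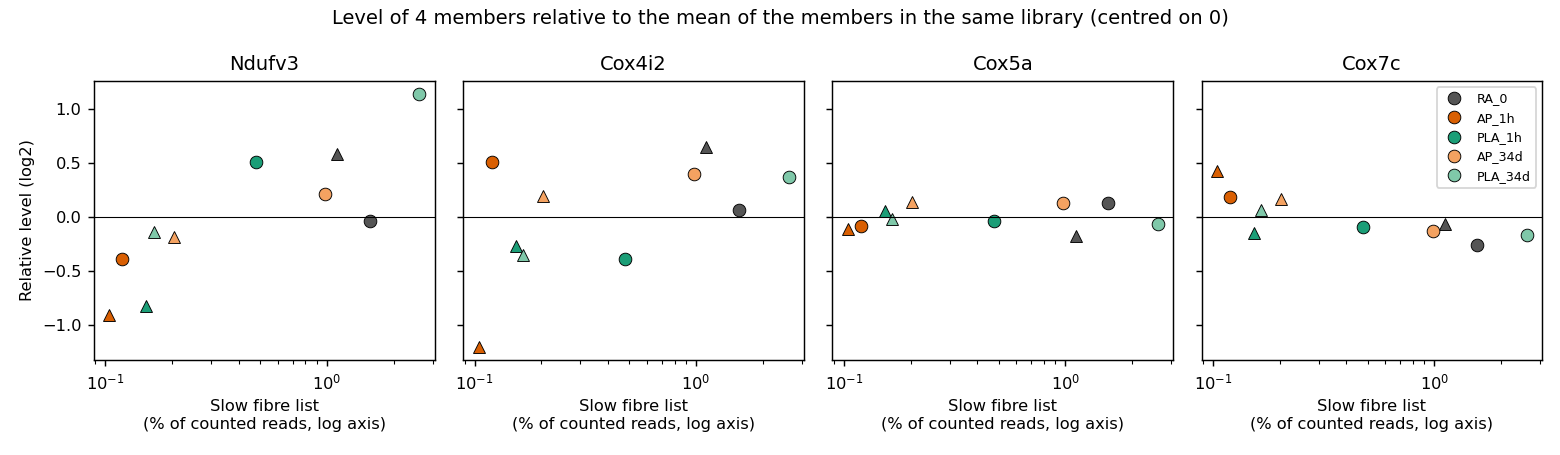
The vertical axes give the level of Ndufv3, Cox4i2, Cox5a and Cox7c relative to the mean of the 76 members in the same library (log2, centred on 0), against the slow fibre share (log axis) of each library. Ndufv3 runs upward with the slow fibre share, with r = 0.84 on this relative scale, while Cox5a varies by an SD of 0.11 only.

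The muscle forms of complex IV subunits varied more than their partners. Cox6a2, the heart and muscle form of subunit 6a, had 1088 and 602 CPM in RA_0, 493 and 368 in AP_1h, 376 and 1014 in PLA_1h, 1177 and 279 in AP_34d, and 270 and 935 in PLA_34d, and its partner Cox6a1, the form of other tissues, ranged from 30.9 to 104 CPM (median 55.7). The ratio of Cox6a2 to Cox6a1, read within each library, was 5.52 in PLA_34d replicate 1 and 15.2 in PLA_1h replicate 2, with a median of 9.98. Cox8b, the muscle form of subunit 8, had 2106 and 680 CPM in RA_0, 456 and 514 in AP_1h, 547 and 1426 in PLA_1h, 1371 and 424 in AP_34d, and 335 and 955 in PLA_34d, and Cox8a, the form of most tissues, ranged from 33.9 to 97.3 CPM. The ratio of Cox8b to Cox8a was 23.9 and 11.9 in RA_0, 8.47 and 8.07 in AP_1h, 10.0 and 20.2 in PLA_1h, 14.1 and 12.5 in AP_34d, and 7.27 and 12.04 in PLA_34d. Both ratios were lowest in PLA_34d replicate 1. On the log2 scale they had r = 0.69 and 0.84 with the summed members and r = −0.21 and 0.13 with slow fibre RNA. Cox6a2 and Cox8b are themselves in the sum and had wider SDs (0.83 and 0.88, log2) than Cox6a1 and Cox8a (0.51 and 0.45). The r with the sum is thus in part built in, and the r with slow fibre RNA is not its like. Transcript lengths were not used, so a ratio compares libraries and not the 2 genes.

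Cox7a2, whose muscle partner is not analysed here, ranged from 38.7 to 186 CPM, and Cox6b2 stayed under the filter. Cox4i1 exceeded Cox4i2 in reads by 96.0-fold to 556-fold, a ratio that rests on few Cox4i2 reads. The 3 genes of the same membrane subunit of complex V differed in their spread: Atp5g1 ran from 149 to 764 CPM, Atp5g2 from 195 to 656 CPM and Atp5g3 from 397 to 1643 CPM. The ratio of Atp5g2 to Atp5g1 was 2.02 and 1.77 in AP_1h, and between 0.858 and 1.28 in the other 8 libraries. The ratio of Atp5g3 to Atp5g1 ran from 2.15 in RA_0 replicate 1 to 3.31 in AP_1h replicate 2. These 3 genes encode the same mature protein.

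Of the members, 10 rows overlap a transcript of another symbol and are uncertain, as whether reads were counted by strand is not stated: Ndufa1, Ndufa2, Ndufs3, Ndufs4, Cox7a2, Cox7b, Cox7c, Ndufa10l1, and 1 row each of Ndufa10 and Atp5h. Ndufa10 and Atp5h (Atp5pd today) are each listed at 2 places that share sequence. The Ndufa10 row on chromosome 6, a span of 1935 bases, held 8.79 to 12.2 times the CPM of the row on chromosome 9, a span of 34519 bases. The Atp5h row on chromosome 5, a span of 578 bases, held 4.89 to 6.46 times that of the row on chromosome 10, a span of 5062 bases. The rows of a pair thus moved together, and reads of the 2 copies may be split between them.

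The promoters of the members were also searched for motifs, and whether a motif goes with a member's level was not tested. Of the 78 symbols, 64 had an entry in RefSeq's promoters of assembly GRCr8, of which the 250 bases before the start were searched on both strands for TGCGCA (the core of the site of nuclear respiratory factor 1), AAGGTCA (the core of the site of oestrogen related receptors) and CCGGAAG (a site of ETS factors such as nuclear respiratory factor 2). CCGGAAG and AAGGTCA can share up to 3 letters where they adjoin, and TGCGCA reads the same on both strands. TGCGCA was found in 19 of 64 members (29.7%), against 6.14% of all 33469 promoters and 7.58% of the 21851 of protein coding genes. CCGGAAG was found in 18 (28.1%), against 7.27% and 9.01%. AAGGTCA was found in 6 (9.38%), against 3.99% and 3.30%. In 29 members (45.3%) none of the 3 was found, against 83.7% of all promoters, and by complex TGCGCA was in 10 of 29 in complex I, 2 of 4 in complex II, 1 of 5 in complex III, 3 of 13 in complex IV and 3 of 12 in complex V. A match is a run of letters and not a site shown to be bound. The promoters compared with were not matched to the members in base composition or in expression.

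The 250 bases before the start are shown for both forms of subunit 8, for Cox6a2 as the other muscle form, for Ndufv3 as the member that went with slow fibre RNA, for Sdha, and for Atp5l (Atp5mg today), chosen after the search as a member with all 3 motifs. Capitals mark a motif or its reverse complement, and each run is written 5′ to 3′ on the strand of the gene.
Cox8b, chr1:205408274-205408523, minus strand: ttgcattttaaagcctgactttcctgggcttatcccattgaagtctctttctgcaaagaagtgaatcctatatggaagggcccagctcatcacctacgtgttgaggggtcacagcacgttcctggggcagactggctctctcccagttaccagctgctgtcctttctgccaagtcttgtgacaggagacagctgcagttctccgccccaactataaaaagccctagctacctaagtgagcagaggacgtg
Cox8a, chr1:213833624-213833873, minus strand: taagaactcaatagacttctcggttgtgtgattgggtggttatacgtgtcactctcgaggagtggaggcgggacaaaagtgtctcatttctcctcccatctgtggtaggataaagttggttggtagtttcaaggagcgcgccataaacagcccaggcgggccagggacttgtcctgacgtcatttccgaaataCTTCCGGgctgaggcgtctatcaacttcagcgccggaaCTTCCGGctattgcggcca
Cox6a2, chr1:192219717-192219966, minus strand: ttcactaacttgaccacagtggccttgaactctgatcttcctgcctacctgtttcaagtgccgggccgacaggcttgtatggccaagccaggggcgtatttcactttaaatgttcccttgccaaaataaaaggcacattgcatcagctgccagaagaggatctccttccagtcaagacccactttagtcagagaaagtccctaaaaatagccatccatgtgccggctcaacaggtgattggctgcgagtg
Ndufv3, chr20:9613536-9613785, plus strand: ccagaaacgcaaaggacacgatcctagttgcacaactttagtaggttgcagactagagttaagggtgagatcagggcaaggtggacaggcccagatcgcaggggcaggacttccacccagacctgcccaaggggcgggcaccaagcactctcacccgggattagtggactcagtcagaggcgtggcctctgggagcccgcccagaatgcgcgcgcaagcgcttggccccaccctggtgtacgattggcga
Sdha, chr1:30764303-30764552, plus strand: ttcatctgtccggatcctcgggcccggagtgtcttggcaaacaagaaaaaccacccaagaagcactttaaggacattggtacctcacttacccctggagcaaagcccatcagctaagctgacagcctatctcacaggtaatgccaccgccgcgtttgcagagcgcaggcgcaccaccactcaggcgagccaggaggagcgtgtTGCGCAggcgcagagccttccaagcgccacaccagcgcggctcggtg
Atp5l, chr8:54130408-54130657, minus strand: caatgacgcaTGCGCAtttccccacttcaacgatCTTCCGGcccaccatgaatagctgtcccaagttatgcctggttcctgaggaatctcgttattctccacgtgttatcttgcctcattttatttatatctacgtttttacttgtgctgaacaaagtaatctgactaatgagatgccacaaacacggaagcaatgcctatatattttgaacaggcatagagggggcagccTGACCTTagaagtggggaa
Cox8a had CCGGAAG on the reverse strand at 57 and 19 bases before the start, and Sdha had TGCGCA at 47. Cox8b, Cox6a2 and Ndufv3 had none of the 3 in this window.

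Other genes of oxidative metabolism, in lists that hold no members, were read in the same fits. None passed in any comparison (limma, adjusted p over all transcripts). In AP_1h against RA_0, an unadjusted p under 0.05 was reached by 0 of 24 tested assembly factors, 2 of 20 transcripts of electron carriers and exchange, 2 of 16 of the tricarboxylic acid cycle, 4 of 16 of fatty acid oxidation and 2 of 12 regulators, all lower in AP_1h, where 5.27% of all transcripts were lower at this p and 3.62% higher. The medians of these lists were −0.24, −0.63, −0.59, −0.97 and −0.13. Cs, citrate synthase, a common measure of mitochondrial content, had 649 and 445 CPM in RA_0, 256 and 301 in AP_1h, 479 and 633 in PLA_1h, 587 and 469 in AP_34d, and 371 and 708 in PLA_34d. Esrrg, a nuclear receptor that drives oxidative genes, had 19.6 and 16.04 CPM in RA_0, 3.78 and 3.92 in AP_1h, 18.1 and 11.8 in PLA_1h, 9.18 and 11.5 in AP_34d, and 22.1 and 14.9 in PLA_34d. Both genes, picked from these lists outside the naming rule, were lower in the AP_1h libraries than in any other library. The share of all transcripts with this order is not given here. In AP_1h against RA_0 they differed by −0.95 ± 0.41 (Cs, adjusted p = 0.545 by limma) and −1.95 ± 0.34 (Esrrg, 0.0988). Of the 12 regulators, 8 were lower in AP_1h than in RA_0. Pprc1, Gabpa and Tfb1m went the other way, with both AP_1h libraries above both RA_0 libraries. In AP_34d against PLA_34d, 4 of 12 regulators had an unadjusted p under 0.05, all lower in AP_34d, and in the other 4 lists there was none, where 2.96% of all transcripts were lower and 2.51% higher. These 4 were Ppara (−1.14 ± 0.41), Ppargc1a (−0.79 ± 0.34), Ppargc1b (−1.28 ± 0.56) and Esrrg (−0.77 ± 0.34), on the log2 scale with SE, named after their values were seen, with adjusted p of 0.846 for Ppara and 0.856 for the others by limma. Their levels were low, at 2.05 to 35.1 CPM over the 10 libraries. Over all 12 regulators the median in AP_34d against PLA_34d was 0.11, and 5 of the 12 were lower in AP_34d. The slow fibre list itself had a median of −3.53 in AP_1h against RA_0, with 7 of 8 rows at an unadjusted p under 0.05 and a smallest adjusted p of 0.24.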

How the data were processed

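Polyadenylated RNA of 10 libraries was sequenced, and per the labels the authors trimmed adapters (cutadapt 1.2.1), aligned reads to rn4 with bowtie2 2.1.0, which does not splice reads, and assigned them to single transcripts with HTSeq 0.5.4p3. The deposited values are a signal: CPM with edgeR's TMM factors (edgeR 3.4.2). In each library 100% of the values were whole multiples of 1 read within 0.01 reads, so counts were recovered for alternatives. Coordinates are those of rn4, counted from 1, and promoters those of GRCr8.

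A transcript was tested where each of the 2 libraries of some group reached 1 CPM: limma 3.58.1 on log2(CPM + 1), which understates changes of low transcripts, with 1 mean per group over all 10 libraries and a mean trend, Benjamini-Hochberg adjusted over 10259 transcripts. The analysis was tested on simulated counts. Alternatives used edgeR 4.0.16, DESeq2 1.42.0 and R 4.3.3, and figures used matplotlib 3.10.9. An exact permutation test between 2 pairs of libraries has a smallest p of 0.333 and was not used.

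The members, the lists of fibre markers and of other oxidative genes, the tests and the naming rule were chosen with earlier results of these data known. The rule named core subunits, tissue forms, per comparison the member with the smallest p in each direction, per complex that with the smallest p of the F test, and the 3 highest and lowest correlations with slow fibre RNA. The table's IDs matched the reference names for 78 of 82 members, of which 16 carry another symbol today.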

Additional observations from a re-analysis of the deposited data

How the results depend on the processing

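Over the 26 alternatives of each pair of groups and of the change of the AP minus PLA difference, and the 25 of the F test, the count of members called stayed at 0, except in AP_1h against RA_0, where DESeq2 and limma on the compared groups alone each called 1, Ndufv3; the cause was not tested. The medians over the members were less firm. Leaving out each library in turn, they ran from −1.40 to −0.32 in AP_1h against RA_0, −0.88 to 0.20 in PLA_1h against RA_0, −1.13 to 0.15 in AP_34d against RA_0, −1.15 to 0.02 in PLA_34d against RA_0, −1.02 to −0.02 in AP_1h against PLA_1h, −0.59 to 0.74 in AP_34d against PLA_34d and −0.13 to 1.22 for the change of that difference, so that only the 2 AP_1h pairs kept their sign. With each library's member mean subtracted, an alternative added after seeing the data, the median in AP_1h against RA_0 was 0.0059, as this removes by construction what the members share. The range of complex V from lowest to highest library was 1.72 (log2) and 0.94 under quantile normalization; the cause was not tested. In place of slow fibre RNA, measures added after seeing the data had r with the members of 0.94 (Acta1 and Ckm), 0.69 (Rn45s) and −0.52 (counted reads). The TMM factor had r = −0.88 with the members' CPM. The differences between replicates correlated between groups from −0.46 to 0.45 over all transcripts and from −0.65 to 0.67 over the members. These values follow which library of a group was high, so they cannot decide whether replicate numbers pair the samples. With a replicate block, 0 members were called in each of the 8 comparisons. As each group holds both replicate numbers, the block cannot move a median by construction (−0.85 in AP_1h against RA_0), so this says nothing about stability. With 2 animals a group, replicate spread and not depth limits these values.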
